A study of Mus musculus with 12 samples.

Results

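The step from multipotent to lymphoid progenitors in juvenile bone marrow (BM) was measured by comparing Ly6d- CLPs with Flk2+ MPPs at 1 month of age (1MO). The members are the 3 libraries of 1MO Ly6d- CLPs and the 3 libraries of 1MO Flk2+ MPPs, chosen by their labels alone, which makes 6 of the 12 libraries of the series. All 6 came from the BM of WT mice of strain C57BL6/J, and no group carried a transgene or received an agent. The other 6 libraries are the same populations at 3 months (3MO) and serve here only as a second look at the step. Both populations were sorted by flow cytometry from lineage-negative BM cells that carry Flk2 (the receptor encoded by Flt3) and CD27. CLPs were then taken as IL-7R+ and Ly6d-, and MPPs as IL-7R- cells with c-kit and Sca-1. Each library is therefore a bulk sample of many cells, in which fewer cells of a type and less RNA per cell cannot be told apart. The study describes CLP libraries as independent experiments, and its methods give the number of cells of both populations sorted per mouse. The labels number the libraries of a group from 1 to 3 without naming a mouse or saying whether equal numbers share an experiment, so the p-values measure the spread between these libraries.

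Flk2+ MPPs still give rise to both myeloid and lymphoid cells, whereas common lymphoid progenitors (CLPs) are strongly committed to B, T and innate lymphoid fates. During this step the lymphoid priming factors of the Ikaros, E protein and EBF families act together with IL-7 receptor signaling, expression of the RAG recombinase increases, and the regulators of stem cells are turned down. CLPs that lack the surface protein Ly6d keep T-lineage potential, while those that carry it lean toward the B lineage.

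The total of the estimated counts lay between 8889083 and 20677785 per 1MO library, and the populations overlapped (exact permutation test, two-sided, p = 0.4, where 3 against 3 libraries cannot go below 0.1). Levels are given as CPM, the counts per 1000000 of the scaled library total. Across genes, Pearson's r of log2 CPM was 0.928 to 0.958 between CLP libraries, 0.952 to 0.956 between MPP libraries and 0.904 to 0.932 between the populations, and each of the 6 libraries had the higher median r with its own population. The transcripts of the sort markers followed the gates. Il7r, the receptor subunit that defines CLPs, was at 381, 402 and 329 CPM in CLPs and at 7.39, 18.5 and 5.24 CPM in MPPs. Kit was at 377, 238 and 272 CPM in CLPs and at 797, 672 and 741 CPM in MPPs, while Flt3 and Cd27, which were part of both gates, were not called (DESeq2 called Flt3, adjusted p = 0.049). Ly6a, which encodes Sca-1, was at 4.41 to 12.3 CPM in CLPs and 24.0 to 43.4 CPM in MPPs without a call (edgeR adjusted p = 0.059), but was called in DESeq2 (adjusted p = 0.0093) and by edgeR on the 6 libraries of 1MO alone (adjusted p = 0.012). Ly6d stayed at 7.26 CPM or less in every library, with a fitted log2 fold change of 2.48 that was not called (edgeR adjusted p = 0.32). These genes were used for the sort, so their differences are a check and not a result.

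Of 32285 genes in the table, 13367 had enough counts to be tested, and 719 of them (5.38%) differed between 1MO CLPs and MPPs by edgeR's quasi-likelihood test, with a threshold of 0.05 on the Benjamini-Hochberg adjusted p. Genes past this threshold are named called below. A total of 344 genes (2.57%) were higher and 375 (2.81%) were lower in CLPs, and the median log2 fold change of all genes tested was -0.02. The median size of a call was 1.34 on the log2 scale for the higher genes and 1.58 for the lower ones, and 105 higher and 131 lower genes differed by at least 4-fold. Protein-coding genes made up 337 of the higher and 361 of the lower calls. In 3 higher genes all MPP libraries had 0 counts and in 8 lower genes all CLP libraries had 0 counts, and the fitted size of such a change has no meaning. The count of calls moved with the libraries used. It was 460 without MPP library 1, 463 without CLP library 2, 473 without CLP library 3 and 477 without MPP library 3, against 490 without MPP library 2 and 623 without CLP library 1. Leaving out any single library of the 12, no gene called with all libraries had the opposite direction.

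**Figure D1:**
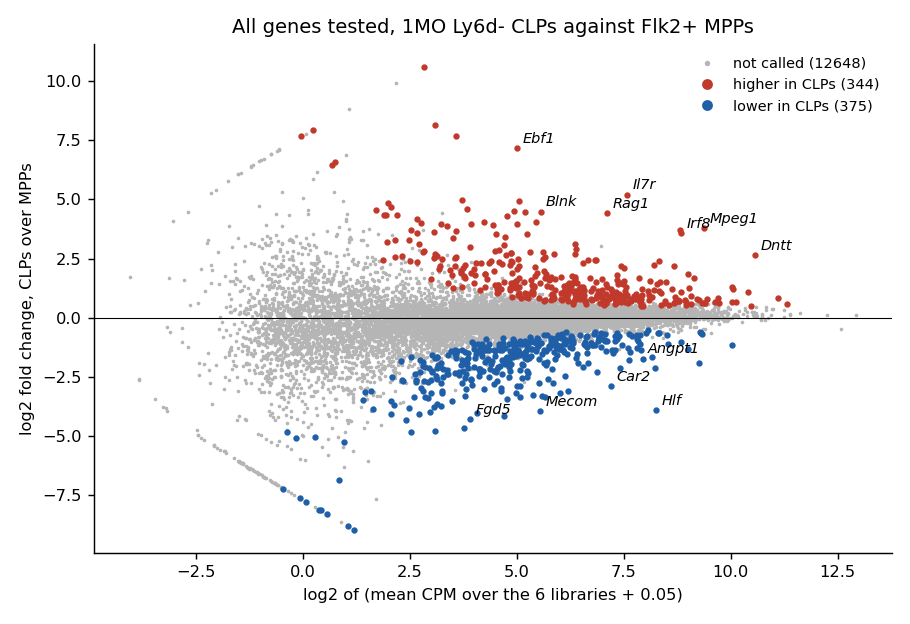
Each of the 13367 genes tested is a point, with the log2 of its mean CPM over the 6 libraries of 1MO on the horizontal axis and its log2 fold change, CLPs over MPPs, on the vertical axis. The 344 genes called higher in CLPs are red, the 375 called lower are blue, and the straight rows of points at the edges are genes without a count in one population.

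Genes of V(D)J recombination, which joins the gene segments of immunoglobulin and T-cell receptor loci, were first examined. Of 15 list members, all of them tested, 4 were called higher in CLPs (26.7% against 2.57% of all genes) and 0 lower, with a median log2 fold change of 0.24. Rag1, a subunit of the recombinase that cuts the segments, was at 266, 197 and 326 CPM in CLPs and at 13.4, 10.8 and 12.6 CPM in MPPs. Its partner subunit Rag2 was at 66.5, 104 and 85.1 CPM in CLPs and at 14.3, 11.3 and 12.1 CPM in MPPs. Both genes were thus expressed in every MPP library, at a level far below each CLP library. The log2 fold change was 4.42 ± 0.28 (SE) for Rag1 (edgeR adjusted p = 2.9e-07) and 2.76 ± 0.37 for Rag2 (edgeR adjusted p = 0.00026). Dntt, the terminal transferase that adds bases at the joints, was at 1988, 2917 and 2922 CPM in CLPs and already at 460, 406 and 389 CPM in MPPs, a 6.24-fold difference (edgeR adjusted p = 2.8e-06). Xrcc6 encodes Ku70, a subunit of the complex that binds broken ends, and was 2.65-fold higher in CLPs, at 248 to 275 CPM against 90.1 to 109 CPM. Xrcc5, which encodes its partner Ku80 and was picked after its values were seen, lay the other way at 18.2 to 28.9 CPM against 36.5 to 43.1 CPM. Xrcc5 was not called in edgeR with all libraries (adjusted p = 0.057), while DESeq2 called it lower (adjusted p = 0.013). It was also called lower by edgeR without 1MO CLP library 2 (adjusted p = 0.038) and without 3MO MPP library 1 (adjusted p = 0.045). The RAG genes, Dntt and Xrcc6 kept their calls with each library left out.

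**Figure D2:**
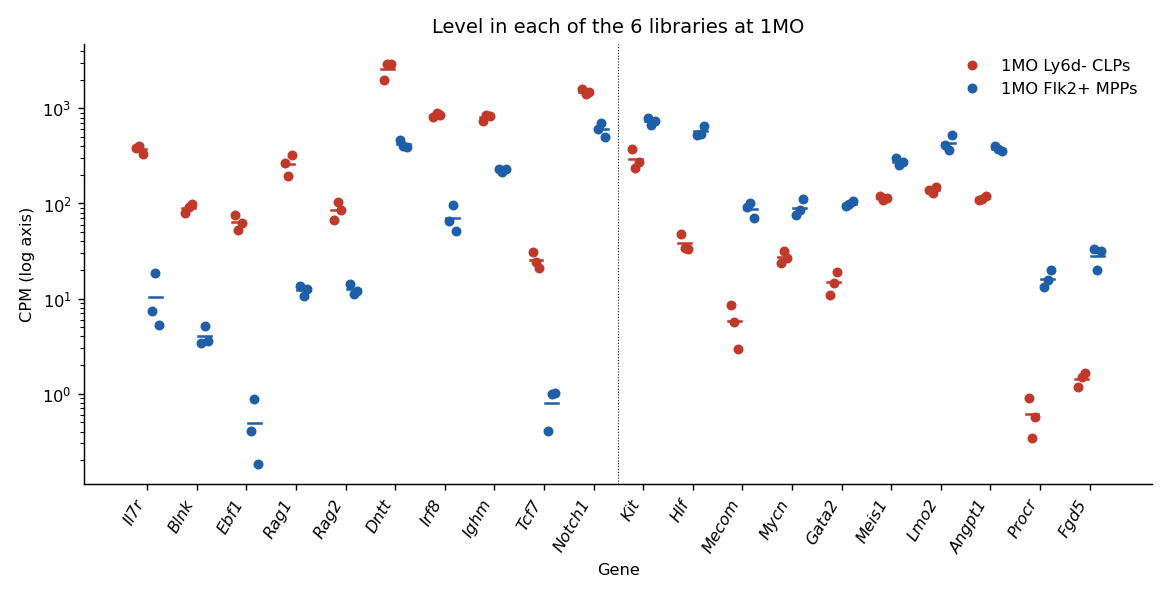
CPM on a log axis in each of the 6 libraries of 1MO, with CLPs in red, MPPs in blue, points for libraries and lines for means. The 10 genes on the left, among them Rag1, Ebf1 and Dntt, are higher in every CLP library than in any MPP library, and the 10 on the right, among them Hlf, Mecom and Procr, are lower in every CLP library.

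Transcription factors of the B lineage differed in size from gene to gene. Of 18 members, all tested, 5 were called higher (Irf8, Ebf1, Ikzf1, Spib and Foxo1) and 0 lower, 27.8% against 2.57% of all genes called higher, and DESeq2 called 8 higher. The fitted change was above 0 in 17 of the 18, with a median log2 fold change of 0.97. Ebf1, the factor that specifies B-cell fate, was at 76.3, 53.0 and 61.9 CPM in CLPs and at 0.402, 0.878 and 0.181 CPM in MPPs. It was close to absent from MPPs and present in every CLP library, and the log2 fold change was 7.14 ± 0.54 (edgeR adjusted p = 1.7e-06). The CLPs were sorted as Ly6d-, and the part of any Ly6d+ cells in the B-lineage levels was not tested. Irf8, a factor of B, dendritic and monocytic cells, was at 805, 897 and 841 CPM in CLPs and at 65.9, 96.2 and 51.3 CPM in MPPs (log2 fold change 3.58 ± 0.22, edgeR adjusted p = 1.5e-07). Ikzf1, which encodes Ikaros, was abundant in both populations and 1.78-fold higher in CLPs, at 1016 to 1101 CPM against 585 to 616 CPM. Spib, an ETS factor, was low in CLPs at 6.09 to 9.78 CPM and near 0 in MPPs. Foxo1, a factor upstream of the RAG genes, was 1.80-fold higher and lost its call without CLP library 1 or 3 or MPP library 2 or 3. Pax5, the commitment factor of the B lineage, was at 17.5, 7.56 and 28.9 CPM in CLPs and at 0.482, 0 and 1.87 CPM in MPPs. The groups did not overlap and the CLP libraries were widely spread. Pax5 lay at the threshold and was not called in the main fit of all 12 libraries (edgeR adjusted p = 0.059). It was called on the 6 libraries of 1MO alone (edgeR adjusted p = 0.011), without a filter beyond 1 count (edgeR adjusted p = 0.00036) and in DESeq2 (adjusted p = 0.0498).

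The pre-B receptor list held genes of early and late B-lineage stages. Of 21 members 15 were tested, 3 were called higher (Blnk, Ighm and Blk) and 1 lower (Igkc), 26.7% against 5.38% of all genes, with a median log2 fold change of 0.48. Blnk, the adaptor that links the pre-B and B-cell receptors to their downstream enzymes, was at 79.3, 92.0 and 97.7 CPM in CLPs and at 3.38, 5.16 and 3.62 CPM in MPPs. This 22.3-fold difference had the smallest adjusted p of all higher genes (edgeR adjusted p = 3.6e-08). Ighm, the constant region of the mu heavy chain, was at 740, 850 and 830 CPM in CLPs and at 228, 213 and 229 CPM in MPPs, so that this transcript was well expressed on both sides of the step. Blk, a Src-family kinase of B cells, was at 18.5, 13.4 and 18.3 CPM in CLPs and had a count in only 1 MPP library, at 0.121 CPM. Few or no counts were estimated for the surrogate light chain genes Igll1 and Vpreb1. Igll1 was listed at 0 in all 6 libraries, and Vpreb1 was at 0.635 to 1.14 CPM in CLPs. Cd79a, a receptor chain, was at 1.83 to 5.65 CPM in CLPs and was not called by edgeR with all 12 libraries (adjusted p = 0.16). Cd79a was called by edgeR on the 6 libraries of 1MO alone (adjusted p = 0.020), also with a replicate block (adjusted p = 0.040), and in DESeq2 (adjusted p = 0.025). Igkc, the constant region of the kappa light chain, had 0 counts in each CLP library and 0.804, 6.04 and 0.904 CPM in MPPs, and its call was lost without CLP library 2 or 3 or MPP library 2. Markers of mature B cells summed to 22.0 to 32.9 CPM in CLPs and 6.99 to 18.5 CPM in MPPs, without overlap (two-sided exact permutation test, p = 0.1). Among the 7 markers Ighd was called higher and Igkc lower, and Ms4a1 had 0 counts in each CLP library. The part of such cells in the B-lineage differences was not tested.

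Several T-lineage genes were called higher in CLPs. Of 20 members 13 were tested, 5 were called higher (Tcf7, Cd247, Satb1, Lck and Zap70) and 0 lower, 38.5% against 2.57% of all genes called higher, with a median log2 fold change of 0.78. Tcf7, which encodes the T-cell factor TCF-1, was at 30.6, 24.1 and 20.8 CPM in CLPs and at 0.402, 0.988 and 1.02 CPM in MPPs, a 30.9-fold difference (edgeR adjusted p = 0.0004). Satb1, a chromatin organizer, was at 874 to 902 CPM in CLPs and at 427 to 586 CPM in MPPs. Lck, a kinase of the T-cell receptor, was at 81.0 to 105 CPM in CLPs against 36.6 to 49.2 CPM. Lck lost its call without CLP library 3 or MPP library 1, and Zap70 without CLP library 2 or MPP library 2 or 3. The later T-lineage factors were low. Gata3 was at 3.15 to 6.41 CPM in CLPs and 6.04 to 8.01 CPM in MPPs without a call, and Bcl11b had too few counts to be tested. Markers of mature T and NK cells overlapped between the populations, at 32.2 to 42.8 CPM in CLPs and 33.1 to 45.6 CPM in MPPs.

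Notch signaling directs lymphoid progenitors to the T lineage. Among 36 pathway members 32 were tested, 2 were called higher (Notch1 and Dtx4) and 2 lower (Dtx3 and Mfng), a share of 12.5% against 5.38% of all genes, and the median log2 fold change was -0.03. DESeq2 called 5 members higher and 2 lower. Notch1, the receptor of T-lineage commitment, was at 1584, 1399 and 1491 CPM in CLPs and at 601, 693 and 504 CPM in MPPs. Every CLP library was above every MPP library, with a log2 fold change of 1.31 ± 0.17 (edgeR adjusted p = 0.00018). Notch2, a second receptor, was similar at 493 to 554 CPM and 525 to 692 CPM and was not called. Dtx4, an E3 ligase of the Deltex family, was at 138, 165 and 164 CPM in CLPs and at 41.9, 32.7 and 18.6 CPM in MPPs, while its relative Dtx3 was at 36.6 to 59.5 CPM in CLPs and 79.4 to 104 CPM in MPPs. Mfng, a glycosyltransferase that modifies Notch receptors, was lower in CLPs, at 48.5 to 63.0 CPM against 92.3 to 108 CPM. Dtx3 and Mfng both lost their calls without CLP library 3 or MPP library 3. Hes1, a direct target, was at 1.98, 2.07 and 5.77 CPM in CLPs and at 0, 0.219 and 0.422 CPM in MPPs, and was called in DESeq2 (adjusted p = 0.018) but not in edgeR (adjusted p = 0.15).

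Genes of the other lymphoid and of dendritic fates were examined next. Of 17 members for innate lymphoid and natural killer cells 11 were tested, 3 were called higher (Nfil3, Itga4 and Il2rb) and 0 lower, 27.3% against 2.57% of all genes called higher (5 in DESeq2), with a median of 1.23. Nfil3, a factor required for innate lymphoid cells, was at 39.8, 42.6 and 42.4 CPM in CLPs and at 7.79, 9.11 and 8.80 CPM in MPPs. Il2rb, a receptor subunit for IL-2 and IL-15, was at 4.23 to 9.14 CPM in CLPs and at most 0.804 CPM in MPPs, and lost its call without CLP library 2 or 3 or MPP library 2 or 3. Among 17 dendritic-lineage members 15 were tested, 7 were called higher (46.7% against 2.57% of all genes) and 0 lower. The median log2 fold change was 0.73. Siglech, a lectin of plasmacytoid dendritic cells, was at 62.9, 76.5 and 68.5 CPM in CLPs and at 4.74, 2.30 and 2.23 CPM in MPPs, a 22.3-fold difference (edgeR adjusted p = 0.00057). Itgax, the integrin subunit CD11c, was 5.17-fold higher in CLPs, at 42.4 to 58.5 CPM against 7.77 to 12.2 CPM. The other calls of the list were Irf8, Spib, Runx2, Tcf4 and Ly6c2. Tcf4 and Runx2 changed less, by 1.72-fold and 1.66-fold. Tcf4 lost its call without CLP library 1 or 3 or MPP library 2 or 3, Runx2 without CLP library 1 or MPP library 1 or 3, and Ly6c2 without any library of 1MO except MPP library 2.

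E proteins and their Id inhibitors set the strength of lymphoid programs. Of 10 members tested, 1 was called higher (Tcf4) and 2 lower (Lmo2 and Tal1), 30% against 5.38% of all genes. Tcf3, which encodes E2A, was at 193 to 232 CPM in CLPs and 154 to 164 CPM in MPPs without a call (edgeR adjusted p = 0.21), and Tcf12, which encodes HEB, overlapped between the populations. Lmo2, the LIM adaptor that joins Tal1 in stem cell complexes, was at 138, 129 and 150 CPM in CLPs and at 416, 363 and 529 CPM in MPPs. Tal1 was at 35.7 to 38.4 CPM in CLPs and 93.6 to 110 CPM in MPPs. Both members of this complex were lower in each CLP library than in any MPP library. Id2, an inhibitor of E proteins that innate lymphoid cells need, was at 7.92 to 10.5 CPM against 2.19 to 4.10 CPM and was called in DESeq2 (adjusted p = 0.023) but not in edgeR (adjusted p = 0.15).

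Regulators of stem and multipotent cells made up the list with the largest share of calls. Of 34 members tested, 19 were called lower in CLPs (55.9% against 2.81% of all genes) and 0 higher, and the median log2 fold change was -1.69 against -0.02 for all genes. Hlf, a basic leucine zipper factor of stem cells, was at 47.4, 33.7 and 33.1 CPM in CLPs and at 519, 539 and 657 CPM in MPPs. Hlf had the smallest adjusted p of all genes tested, with a log2 fold change of -3.91 ± 0.19 (edgeR adjusted p = 1.5e-08). Mecom, the stem cell factor also known as Evi1, was at 8.64, 5.68 and 2.92 CPM in CLPs and at 91.2, 100.2 and 70.0 CPM in MPPs. Gata2 was at 10.8, 14.5 and 19 CPM in CLPs and at 94.2, 97.8 and 106 CPM in MPPs. Meis1, a homeobox partner, was lower by a smaller factor of 2.41, at 109 to 120 CPM against 255 to 301 CPM. Angpt1, the ligand of the receptor Tie2, was 3.31-fold lower. Procr, a surface marker of stem cells, was at 0.900, 0.346 and 0.571 CPM in CLPs and at 13.3, 15.6 and 19.9 CPM in MPPs. Mycn was at 23.4, 31.5 and 26.7 CPM in CLPs and at 75.9, 85.3 and 111 CPM in MPPs.

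Further calls of the stem list were Nkx2-3, Myct1, Eya2, Txnip, Cd34, Hoxa9, Esam and Prdm16, with fitted log2 fold changes from -0.68 for Cd34 to -4.15 for Myct1. Esam and Prdm16 lost their calls when any one of the 6 libraries of 1MO was left out, Cd34 lost its call without any of them except MPP library 2, and Hoxa9 without any except MPP library 1. In all, 14 of the 19 called genes kept their calls in each of these fits. Among HoxA and HoxB genes 12 were tested, 0 were called higher and 3 lower (Hoxa9, Hoxa10 and Hoxa5), 25% against 2.81% of all genes called lower, with 11 of 12 fitted changes below 0 and a median of -0.89. Hoxa10 was at 1.14 to 3.24 CPM in CLPs and 13.1 to 18.1 CPM in MPPs. All 3 Hox calls were close to the threshold, since Hoxa10 lost its call without any one of the 6 libraries of 1MO and Hoxa5 without CLP library 1 or 3 or MPP library 1 or 2.

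The stretch of 250 bases before the transcription start is given for 3 genes of each direction, the members of the gene lists with the smallest adjusted p that have an entry among RefSeq promoters (assembly GRCm38.p6), because their transcripts differed most clearly at this step. Each runs from 5′ to 3′ on the strand of the gene and ends at the base before the start. Runs of letters were searched on both strands, none of which contains another, and matches are in capitals. The E-box letters were CAGGTG, which E proteins bind. The core of EBF sites was CCCNNGGG. The Runx letters were TGTGGT. The GATA letters were AGATAA. Over all 32851 RefSeq promoters of this length the E-box letters occurred in 17.2%, the EBF core in 11.8%, the Runx letters in 14% and the GATA letters in 9.99%. The genes higher in CLPs were
Blnk (chr19:40994222-40994471, minus strand): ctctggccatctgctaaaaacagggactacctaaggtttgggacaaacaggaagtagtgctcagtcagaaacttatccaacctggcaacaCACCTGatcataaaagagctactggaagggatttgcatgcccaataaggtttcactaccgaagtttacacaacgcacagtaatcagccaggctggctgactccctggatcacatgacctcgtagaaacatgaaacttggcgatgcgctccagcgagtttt
Irf8 (chr8:120736108-120736357, plus strand): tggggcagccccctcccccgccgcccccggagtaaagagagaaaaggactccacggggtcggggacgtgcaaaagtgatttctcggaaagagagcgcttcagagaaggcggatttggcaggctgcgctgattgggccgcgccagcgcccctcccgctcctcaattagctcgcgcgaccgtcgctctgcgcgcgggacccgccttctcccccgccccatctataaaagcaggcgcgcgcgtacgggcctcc
Rag1 (chr2:101649533-101649782, minus strand): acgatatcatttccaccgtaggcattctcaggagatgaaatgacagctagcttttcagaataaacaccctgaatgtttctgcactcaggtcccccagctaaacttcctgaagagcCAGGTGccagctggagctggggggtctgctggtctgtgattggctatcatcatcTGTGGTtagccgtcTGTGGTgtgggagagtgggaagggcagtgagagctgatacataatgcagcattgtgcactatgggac
and the genes lower in CLPs were
Hlf (chr11:90390918-90391167, minus strand): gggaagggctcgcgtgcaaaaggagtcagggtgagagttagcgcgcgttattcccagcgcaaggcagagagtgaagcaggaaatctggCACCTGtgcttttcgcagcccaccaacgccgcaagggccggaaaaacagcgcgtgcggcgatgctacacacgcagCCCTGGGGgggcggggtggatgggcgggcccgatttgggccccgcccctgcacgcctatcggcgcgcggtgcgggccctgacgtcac
Fgd5 (chr6:91978715-91978964, plus strand): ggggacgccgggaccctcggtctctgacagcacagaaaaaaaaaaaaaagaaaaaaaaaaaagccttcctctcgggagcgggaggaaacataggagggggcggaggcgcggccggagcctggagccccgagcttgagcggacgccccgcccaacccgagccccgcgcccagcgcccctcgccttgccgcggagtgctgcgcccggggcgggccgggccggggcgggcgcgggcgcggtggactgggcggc
Mecom (chr3:30509760-30510009, minus strand): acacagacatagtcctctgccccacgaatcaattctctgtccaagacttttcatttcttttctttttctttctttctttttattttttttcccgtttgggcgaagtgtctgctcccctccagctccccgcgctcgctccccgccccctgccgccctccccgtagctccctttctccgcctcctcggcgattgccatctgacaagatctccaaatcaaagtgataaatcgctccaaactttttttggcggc

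The Rag1 stretch held 1 E-box, starting 135 bases before the start, and a pair of Runx letters 81 and 67 bases before it. The Blnk stretch held 1 E-box at 160 bases. The Hlf stretch, of a gene that was lower in CLPs, also held 1 E-box, at 162 bases, and 1 EBF core at 87 bases, while none of the letters occurred before Irf8, Fgd5 or Mecom. A match is only a run of letters and does not show binding. Promoters were found for 10376 of the 13367 genes tested (2991 had no entry), and shares were not compared between higher and lower genes.

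Myeloid genes moved in both directions. All 36 members were tested, 8 were called higher and 5 lower in CLPs (36.1% against 5.38% of all genes), and the median log2 fold change was 0.53. Among the higher ones, Clec12a, an inhibitory lectin of myeloid cells, was at 114, 152 and 176 CPM in CLPs and at 13.1, 26.7 and 19.1 CPM in MPPs. Ly86, a lymphocyte antigen that pairs with a Toll-like receptor homolog, was at 26.8, 47.1 and 50.9 CPM in CLPs and 2.95 to 3.95 CPM in MPPs. Plac8, a gene of primed progenitors, was 2.66-fold higher, at 293 to 571 CPM against 146 to 195 CPM. Elane, the gene of neutrophil elastase, was at 34.0 to 66.7 CPM in CLPs and 11.3 to 20.3 CPM in MPPs. The remaining higher calls were Irf8, Csf1r, F13a1 and Ly6c2. Among the lower ones, Cebpa, the main factor of granulocyte and monocyte fate, was at 20.6 to 27.6 CPM in CLPs and 42.7 to 57.1 CPM in MPPs, and Csf3r, the G-CSF receptor, was 4.2-fold lower (edgeR adjusted p = 0.0002). Gfi1, Ccl9 and Anxa1 were lower as well.

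The granule gene Mpo was abundant in both populations, at 792 to 1140 CPM in CLPs and 557 to 680 CPM in MPPs. Mpo was called in DESeq2 (adjusted p = 0.023) but not in the main edgeR fit (adjusted p = 0.071). It was called by edgeR without a filter beyond 1 count (adjusted p = 0.026) and without 3MO MPP library 1 (adjusted p = 0.041). Elane lost its call without CLP library 1 or MPP library 1 or 2, Csf1r without CLP library 3 or MPP library 1 or 3, and F13a1 without CLP library 1 or MPP library 1 or 3. Ccl9 lost its call without any library of 1MO except MPP library 3, Anxa1 without any except CLP library 3, and Ly6c2 without any except MPP library 2. Gfi1 lost it without CLP library 1 or 3 or MPP library 2 or 3. Irf8, Clec12a, Ly86, Plac8, Csf3r and Cebpa kept their calls. Markers of neutrophils and monocytes overlapped between the populations, at 31.1 to 37.4 CPM in CLPs and 24.5 to 48.7 CPM in MPPs in sum, with 0 of 9 tested markers called and Ly6g at 0 in all 6 libraries. Macrophage markers overlapped too, at 16.4 to 39.6 CPM and 14.2 to 36.3 CPM.

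Of 21 tested megakaryocyte and erythroid members, 1 was called higher (Tfrc) and 3 lower (Car2, Nfe2 and Zfpm1), where the lower calls made up 14.3% against 2.81% of all genes, with a median log2 fold change of 0.16. Car2, a carbonic anhydrase, was at 26.7, 34.6 and 43.9 CPM in CLPs and at 239, 192 and 346 CPM in MPPs, a 7.38-fold difference (edgeR adjusted p = 3.1e-06). Nfe2, a megakaryocyte factor, was 3.81-fold lower in CLPs. Zfpm1 encodes FOG-1, the partner of GATA factors, and was at 22.2 to 35.4 CPM in CLPs and 66.8 to 88.3 CPM in MPPs. Tfrc, the transferrin receptor through which dividing cells take up iron, was at 731, 393 and 494 CPM in CLPs and at 104, 130 and 70.3 CPM in MPPs. Gata1 was at 1.33 to 2.22 CPM in CLPs and 2.30 to 11.2 CPM in MPPs and was not called. Erythroid markers followed the library number and not the population. Their sum was 156.5 CPM in CLP library 3 and 153.9 CPM in MPP library 3, against 12.1 to 30.4 CPM in the other 4 libraries.

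**Figure D3:**
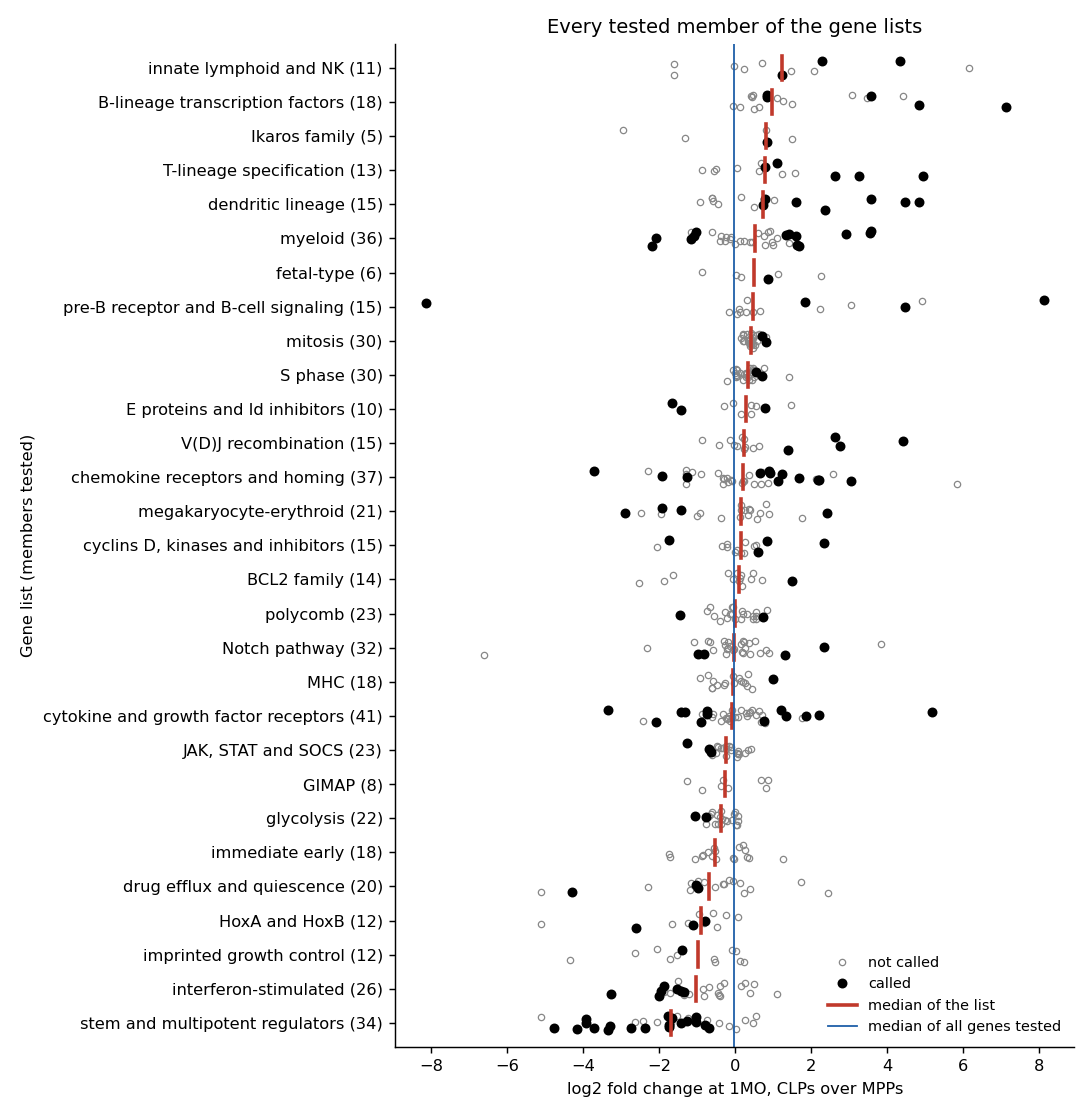
The log2 fold change at 1MO, CLPs over MPPs, of each tested member of 29 gene lists, with called genes filled and other genes open, the median of each list as a red bar and that of all genes tested as a blue line. The stem and multipotent regulators lie furthest to the left, with 19 of 34 called lower, and the members for mitosis lie in a narrow band just above 0.

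Receptors of cytokines and growth factors were split. All 41 members were tested, 6 were called higher and 7 lower (31.7% against 5.38% of all genes), with a median of -0.07. DESeq2 called 10 higher and 9 lower. Besides Il7r, Il6st, the shared signal subunit of the IL-6 family, was at 699, 580 and 726 CPM in CLPs and at 150, 154 and 132 CPM in MPPs, a 4.61-fold difference (edgeR adjusted p = 0.00019). Lifr, a receptor that pairs with it, was at 69.9, 77.6 and 61.9 CPM in CLPs and at 7.71, 20.0 and 29.2 CPM in MPPs. Both subunits of this receptor pair were higher in every CLP library. Il18r1, Csf1r and Il10ra were also called higher. The lower calls besides Kit and Csf3r included Il1r1 (1.86-fold), Il12rb2, Tgfbr2 and Il2rg, the common gamma chain that pairs with the IL-7 receptor. Il2rg was at 39.9 to 56.3 CPM in CLPs and 72.8 to 93.6 CPM in MPPs, and its call was lost without any one of the 6 libraries of 1MO. The same held for Tgfbr2. Il12rb2 lost its call without any of them except CLP library 2, Il10ra without any except CLP library 1, and Il18r1 without CLP library 2 or MPP library 2 or 3.

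Downstream of these receptors, 23 JAK, STAT and SOCS genes were tested, 0 were called higher and 3 lower (Socs5, Jak3 and Pim1), 13% against 2.81% of all genes called lower, with a median of -0.23. Jak3, the kinase that binds the common gamma chain, was at 129 to 165 CPM in CLPs and 229 to 261 CPM in MPPs. Jak1, its partner at the IL-7 receptor, overlapped between the populations at 287 to 388 CPM and 378 to 391 CPM and was not called. Socs5, a suppressor of cytokine signaling, was at 28.1 to 49.8 CPM in CLPs and 74.2 to 115 CPM in MPPs. These calls were not firm. Jak3 was lost without CLP library 2 or 3 or MPP library 1 or 2, Socs5 without CLP library 3 or MPP library 2, and Pim1 without any library of 1MO except CLP library 1.

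Genes for homing and adhesion included many with a higher level in CLPs. Of 37 members tested, 9 were called higher (24.3% against 2.57% of all genes) and 3 lower, with a median log2 fold change of 0.22. Cx3cr1, the receptor of fractalkine, was at 39.2, 50.9 and 49.1 CPM in CLPs and at 5.30, 7.24 and 4.28 CPM in MPPs (log2 fold change 3.06 ± 0.34, edgeR adjusted p = 4.2e-05). S1pr3, a receptor for sphingosine-1-phosphate, was 4.59-fold higher and Itga4, the VLA-4 integrin subunit, was 2.34-fold higher. Cxcr4, the receptor that holds progenitors in the BM, was at 187 to 293 CPM in CLPs and 103 to 130 CPM in MPPs. Ccr7, a receptor used for thymus entry, was at 11.9 to 19.8 CPM in CLPs and 1.98 to 4.52 CPM in MPPs, and lost its call without CLP library 2. Ccr9, the other main thymus homing receptor, was at 24.7 to 36.8 CPM in CLPs and 18.3 to 24.4 CPM in MPPs and was not called (edgeR adjusted p = 0.48). Selplg, the selectin ligand PSGL-1, was 1.91-fold higher in CLPs. Pecam1 and Cd44 were called higher as well, the latter not without CLP library 2 or MPP library 1 or 3. Of the lower calls, Itga6 was at 41.9 to 45.9 CPM in CLPs and 92.2 to 122 CPM in MPPs and kept its call, Emcn lost it without CLP library 1 or 2 or MPP library 3, and Esam is described above.

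Cell cycle genes had small fitted changes, most of them above 0. In the S phase list 27 of 30 tested members and in the mitosis list 30 of 30 had a fitted change above 0, with medians of 0.33 and 0.42 on the log2 scale against -0.02 for all genes. In edgeR 2 members of each list were called higher, Fen1 and Uhrf1 for S phase and Plk1 and Ccnb1 for mitosis, which is 6.67% of each against 2.57% of all genes. DESeq2 called 7 and 5 members higher. Mki67, the proliferation antigen, was at 2193 to 2399 CPM in CLPs and 1478 to 2080 CPM in MPPs and was not called (edgeR adjusted p = 0.24). Top2a was at 1425 to 1479 CPM in CLPs and 1019 to 1232 CPM in MPPs, without overlap, and was called in DESeq2 (adjusted p = 0.0094) but not in edgeR (adjusted p = 0.092). The cell cycle calls were weak. Uhrf1 and Ccnb1 lost theirs without any one of the 6 libraries of 1MO, and Fen1 and Plk1 without CLP library 2 or 3 or MPP library 1 or 2.

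Regulators of the cell cycle and of survival gave clearer single genes. Of 15 D cyclins, kinases and inhibitors tested, 3 were called higher (Cdkn1a, Cdk6 and Ccnd2) and Mycn lower, 26.7% against 5.38% of all genes. Cdkn1a, the inhibitor p21, was at 46.4, 35 and 37.4 CPM in CLPs and at 7.79, 8.78 and 6.99 CPM in MPPs, a 5.05-fold difference (edgeR adjusted p = 0.00014). Cdk6 was at 2596 to 2957 CPM in CLPs and 1145 to 1857 CPM in MPPs, and Ccnd2 at 887 to 1120 CPM and 651 to 698 CPM. Cdk6 lost its call without CLP library 2 or MPP library 3, and Ccnd2 without any of the libraries except CLP library 1. In the BCL2 family 14 members were tested and only Bcl2 was called, 7.14% against 5.38% of all genes. Bcl2 is the survival factor that IL-7 signaling sustains in lymphocytes. Bcl2 was at 578, 530 and 476 CPM in CLPs and at 213, 219 and 125 CPM in MPPs, 2.84-fold higher (edgeR adjusted p = 0.00015). Bcl2l1, which encodes its relative BCL-XL, overlapped at 12 to 19 CPM and 12.4 to 22.1 CPM.

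In the interferon-stimulated list every call was lower in CLPs. Of 26 members tested, 0 were called higher and 7 lower (26.9% against 2.81% of all genes), with 21 of 26 fitted changes below 0 and a median of -1.02. Ifitm1, a membrane protein that blocks virus entry, was at 5.85, 7.26 and 10.3 CPM in CLPs and at 65.3, 57.8 and 101 CPM in MPPs, a 9.54-fold difference (edgeR adjusted p = 0.00088). Gbp2, a guanylate-binding protein, was at 7.38, 12.6 and 12.4 CPM in CLPs and at 37.8, 41.2 and 45.7 CPM in MPPs. Oasl2 and Oas2, of the oligoadenylate synthetase family, were 2.88-fold and 4.0-fold lower. Oas3, Ifitm3 and Ifitm2 were the other calls, and Ifitm2 lost its call without CLP library 1 or 2 or MPP library 1 or 3. The Ifitm and Oas genes are families of close copies, so reads may be shared between their members. In DESeq2 10 members were called lower. Other well-known members did not pass in edgeR without a replicate block or in DESeq2, such as Irf7 and Ifit1, the latter at 2.79 to 11.6 CPM and 11.2 to 29.8 CPM and called lower with the block (edgeR adjusted p = 0.031).

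The remaining lists had 0 to 3 calls each. In the drug efflux and quiescence list 3 of 20 tested members were called lower (15% against 2.81% of all genes), among them Fgd5 at 1.17, 1.48 and 1.65 CPM in CLPs and 33.0, 20.1 and 31.8 CPM in MPPs. Fgd5, an exchange factor used to mark stem cells, thus differed 19.5-fold (edgeR adjusted p = 1.4e-05), while Abcc1 differed 1.95-fold and lost its call without CLP library 2 or 3 or MPP library 1 or 2. In glycolysis 2 of 22 members were called lower, the glucose transporter Slc2a3 and Aldoa (9.09% against 2.81% of all genes). The median was -0.37, with 18 fitted changes below 0. Aldoa was lost without any library of 1MO except MPP library 1. Of 23 polycomb genes Cbx2 was called higher and Cbx7 lower (8.70% against 5.38% of all genes). These related subunits were at 72.8 to 92.7 CPM and 14.1 to 26.2 CPM in CLPs, and at 46.6 to 53.8 CPM and 42.2 to 61.2 CPM in MPPs. Cbx2 was lost without any one of the 6 libraries, and Cbx7 without CLP library 2 or MPP library 3. Of 6 fetal-type genes tested Hmga1 was called (16.7% against 5.38% of all genes), at 231 to 348 CPM in CLPs and 124 to 210 CPM in MPPs. Hmga1 lost its call without CLP library 2 or 3 or MPP library 1 or 2. Sgce was the only call among 12 imprinted genes (8.33% against 5.38% of all genes). This call was lost without any one of the 6 libraries.

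H2-Ob, a chain of the class II modulator H2-O, was 2.00-fold higher in CLPs, the only call among 18 MHC genes, a share of 5.56% that is near the 5.38% of all genes. Ikzf1 was the only call among the 5 Ikaros family genes (20% against 5.38% of all genes). Its relative Ikzf2 was at 185, 44.0 and 57.9 CPM in CLPs and at 249, 239 and 226 CPM in MPPs, where CLP library 1 stood apart from the other CLP libraries. Ikzf2 was not called in the main fit (edgeR adjusted p = 0.056). It was called without 1MO CLP library 1, without 3MO MPP library 1, without a filter beyond 1 count (edgeR adjusted p = 0.00018) and in DESeq2 (adjusted p = 0.011). Among 8 GIMAP genes and among 18 immediate early genes 0 were called in edgeR, with 3 of each list at an unadjusted p under 0.05 and 1 of each called lower in DESeq2. These counts depend on the fit, since other edgeR fits, such as that without a filter beyond 1 count, called up to 1 GIMAP gene and up to 3 immediate early genes lower. The families of housekeeping genes, looked at after the other values were seen, also had 0 calls in edgeR and in DESeq2, and 0 genes at an unadjusted p under 0.05 in edgeR, among 81 cytosolic ribosomal protein genes, 13 mitochondrially encoded genes and 36 nuclear subunits of complex I. Over all lists, with each gene once, 58 of 537 tested members were higher and 55 lower, 21% against 5.38% of all genes. The lists were chosen with earlier results of these data known, so this share is a description.

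Many of the strongest differences lay outside the lists. Mpeg1, which encodes the pore-forming protein perforin-2, was at 987, 1457 and 1273 CPM in CLPs and at 86.4, 133 and 52.9 CPM in MPPs, a 13.7-fold difference (edgeR adjusted p = 1.9e-06). It was far above the MPP range in each CLP library. Cmah, an enzyme of sialic acid synthesis, was at 961, 788 and 741 CPM in CLPs and at 81.1, 70.1 and 41.3 CPM in MPPs. St6gal1, a sialyltransferase, was at 58.5, 52.6 and 62.8 CPM in CLPs and at 1.53, 1.76 and 4.16 CPM in MPPs. These enzymes of sialic acid were 12.9-fold and 22.7-fold higher in CLPs. Tmem119, a membrane protein known from microglia and bone cells, was 30.7-fold higher, at 42.4 to 76.8 CPM against 1.51 to 2.65 CPM. Chdh, which encodes choline dehydrogenase, was 4.54-fold higher.

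Among the genes lower in CLPs, Adgrl4, an adhesion receptor best known from endothelium, was at 244, 251 and 270 CPM in CLPs and at 1010, 820 and 1078 CPM in MPPs. Mmrn1, which encodes the platelet and endothelial protein multimerin, was at 6.93, 9.04 and 8.06 CPM in CLPs and at 60.9, 51.6 and 65.6 CPM in MPPs. Gcnt2, a branching enzyme of cell surface sugars, was 4.30-fold lower and Samd9l, a growth suppressor, was 3.73-fold lower. Arhgef12, a guanine nucleotide exchange factor, was at 11.8 to 14.2 CPM in CLPs and 57.1 to 66.6 CPM in MPPs. Rab38, a small GTPase of lysosome-related organelles, was 10.6-fold lower. Shank3, a scaffold protein known from synapses, was 10.3-fold lower, with a wide spread of 2.37 to 11.6 CPM in CLPs. Nwd1, Hdgfl3 and Samd12 were lower by 4.30-fold, 5.88-fold and 16.0-fold.

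Markers of cells that a sort could carry along were summed per library. Stroma and bone markers were higher in CLPs without overlap, at 606, 214 and 222 CPM against 64.1, 82.9 and 15.5 CPM (p = 0.1 by a two-sided exact permutation test, which cannot give less with 3 libraries per side). Most of this came from the collagen genes Col1a1, at 134 to 400 CPM in CLPs and 2.11 to 49.6 CPM in MPPs, and Col1a2. Lum, Dcn, Lepr and Pdgfra, which are also made by stromal cells, were at 2.7 CPM or less in every library. Levels of the other list members (Col3a1, Sparc, Bglap, Cxcl12 and Kitl) are not given here. Of the 6 tested markers only Col1a2 was called with all libraries, but not in DESeq2 (adjusted p = 0.20) nor without CLP library 1 or 2 or MPP library 1 or 3. Col1a1 was called on the 6 libraries of 1MO alone (edgeR adjusted p = 0.048) but not in the main fit of all 12 (edgeR adjusted p = 0.11). With all 12 libraries it was called without a filter beyond 1 count (edgeR adjusted p = 4.7e-05) and with a replicate block (edgeR adjusted p = 0.039). Endothelial markers summed to 283 to 322 CPM in CLPs and 165 to 228 CPM in MPPs, of which Pecam1 made up 263 to 286 CPM and 127 to 172 CPM, with Cdh5 at 1.78 CPM or less. These sums did not overlap either (two-sided exact permutation test, p = 0.1), and of the 7 tested markers Pecam1 was called higher and Emcn lower. The plasma cell list summed to 101 to 179 CPM in CLPs and 62.8 to 92.5 CPM in MPPs, again without overlap (two-sided exact permutation test, p = 0.1). Most of it was Sdc1 and Xbp1. Sdc1, which encodes syndecan-1, was at 67.5, 116 and 118 CPM in CLPs and at 27.3, 27.7 and 37.2 CPM in MPPs and was called higher (log2 fold change 1.71 ± 0.22, edgeR adjusted p = 0.0002). Ighg1 was at 0 in all libraries and Jchain at 1.04 CPM or less in CLPs. Mast cell and basophil markers were at 27.3 to 61.4 CPM in CLPs and 57.9 to 120 CPM in MPPs, which overlap. The part of these cells in the differences was not tested.

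**Figure D4:**
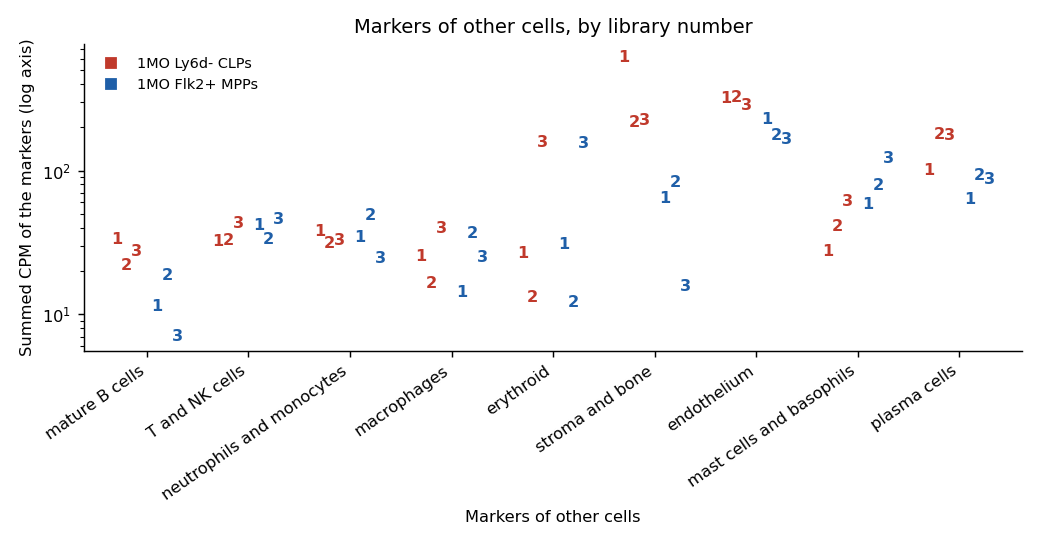
Summed CPM, on a log axis, of the markers of 9 other cell types in each library of 1MO, drawn as its library number, with CLPs in red and MPPs in blue. The sums for mature B cells, stroma and bone, endothelium and plasma cells are higher in the 3 CLP libraries without overlap, and erythroid markers are high in library 3 of both populations.

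The same step was then compared at 3MO, in 6 libraries that are separate from those of 1MO and were fitted in the same model. Whether equal library numbers share an experiment across the ages is not given by the labels. At 3MO, 812 genes (6.07%) were called. Of the 719 genes called at 1MO, 715 had the same direction at 3MO, against 68.8% of all genes tested. Of the 719, 491 were also called at 3MO, of which 246 were higher and 244 lower at both ages. These are 68.3% of the 1MO calls and 60.5% of the 3MO calls. Over the 719 genes the log2 fold changes of the ages had Pearson's r of 0.91, and 0.55 over all genes tested, where genes are not independent replicates. The median log2 fold change of the genes higher at 1MO was 1.34 at 1MO and 1.12 at 3MO, and that of the genes lower at 1MO was -1.58 and -1.32. These genes were chosen by their calls at 1MO. Of the 3MO libraries, MPP library 1 stood apart, and without it 887 genes were called at 1MO.

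**Figure D5:**
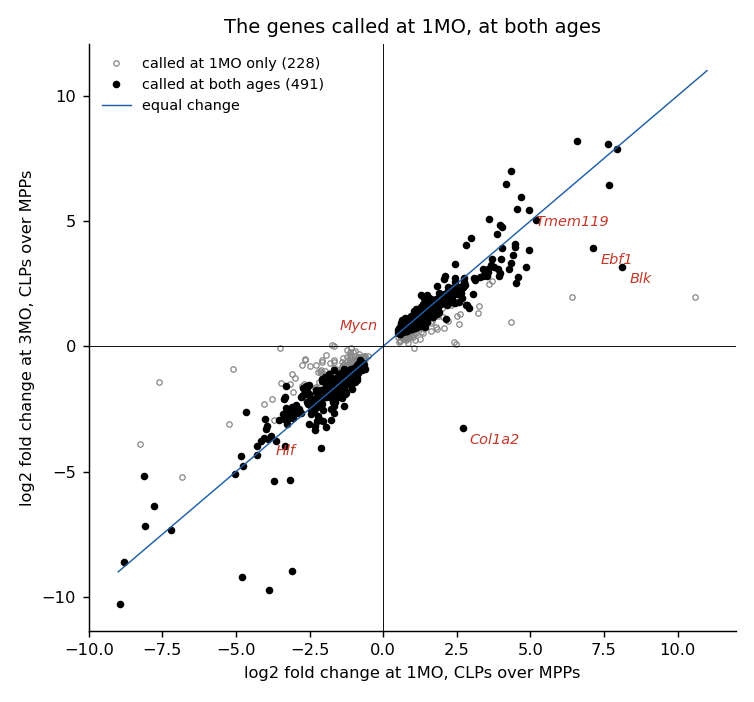
The log2 fold change, CLPs over MPPs, at 1MO on the horizontal axis and at 3MO on the vertical axis for the 719 genes called at 1MO, with the 491 called at both ages filled and a line of equal change. Most genes lie near the line, Mycn lies close to 0 at 3MO, and Col1a2 lies in the opposite corner.

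A test of the difference between the ages in the size of the step called 0 genes in edgeR, with 429 at an unadjusted p under 0.05, and 7 in DESeq2. Without a filter beyond 1 count edgeR called 6, among them Mycn, Ebf1 and Col1a2. Mycn, a growth-promoting relative of Myc, had the smallest adjusted p with the filter. It was 3.33-fold lower in 1MO CLPs but had a log2 fold change of 0.06 at 3MO (edgeR adjusted p of the difference 0.24). Ebf1 had a log2 fold change of 7.14 at 1MO and 3.92 at 3MO (edgeR adjusted p of the difference 0.82). Col1a2, a collagen of bone matrix, was called at both ages in opposite directions. It was at 168, 65.8 and 66.7 CPM in CLPs and at 14.9, 26.1 and 5.66 CPM in MPPs at 1MO, with a fitted log2 change of 2.7 at 1MO and -3.26 at 3MO (edgeR adjusted p of the difference 0.59). It was called as different between the ages without 3MO CLP library 3. Of the 19 stem and multipotent regulators called lower at 1MO, 18 had the same sign at 3MO, against 68.8% of all genes tested. Mycn was the exception in sign, and 17 of the 19 were called at 3MO. The stem list had a median of -1.22 at 3MO, the B-lineage factors 0.67 and the interferon-stimulated genes -1.09.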

How the data were processed

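The authors prepared directional libraries from polyadenylated RNA and ran an nf-core workflow that included Trim Galore, SortMeRNA, STAR, Salmon, FastQC and UMI-tools. Per the labels the genome build was mm10, and the annotation release is not given in the sources used here. The deposited table holds an estimated count per gene, scaled for transcript length and not for depth, in 12 columns that were all matched to samples by name. The estimated counts were rounded to whole numbers.

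Genes were tested with edgeR 4.0.16 in R 4.3.3 (filterByExpr, TMM normalization, quasi-likelihood F-test) in 1 fit of 4 groups of 3 libraries, with contrasts for the step at 1MO, the step at 3MO and their difference, at a Benjamini-Hochberg adjusted p under 0.05. The fit of all groups gives a shared estimate of the spread. CPM values use the TMM-scaled totals. Fold changes are those of the fit, and ± is the standard error. For single values an exact permutation test was used. The test was checked on simulated counts. Coordinates are of GRCm38, and Ensembl identifiers matched GENCODE M21 for 32158 of 32285 genes. Reads shared by near-identical copies or by overlapping genes cannot be assigned with certainty.

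Genes were named by a rule: the 12 genes of each direction with the smallest adjusted p, at least a 2-fold change and no overlap, the 6 of each direction with the largest change and at least 1 CPM in every library, the first 4 members of each list and up to 4 calls per direction, and the 3 genes with the smallest p for the difference between the ages. A few genes that the rule names are not reported here. Other genes, among them the remaining called list members and the markers of other cells, were chosen after their values were seen. The groups, lists and rule were chosen with earlier results of these data known. The alternatives were DESeq2's size factors, DESeq2 1.42.0, no filter beyond 1 count, at least 10 counts in every library, thinning to the smallest total, a replicate block, only the 6 libraries of 1MO without and with that block, a 2-fold minimum, and each library left out in turn.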

Additional observations from a re-analysis of the deposited data

How the results depend on the processing

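Of the 719 genes called at 1MO, 0 had the opposite direction under any alternative in which they were tested. DESeq2's Wald test called 1230 genes at 1MO (554 higher and 676 lower), 1427 at 3MO, 784 at both ages and 7 for the difference between the ages. Without a filter beyond 1 count 6 genes were called for the difference, namely Col1a2, 1700047I17Rik2, Mst1r, Ebf1, Col1a1 and Mycn. Ly6a was called at 1MO in that fit (edgeR adjusted p = 0.0026). A 2-fold minimum left 144 genes at 1MO (73 higher and 71 lower). With 1 library left out, the calls at 1MO ranged from 460 to 887 (higher 220 to 430, lower 227 to 457), those at 3MO from 553 to 881, those at both ages from 353 to 469 and those for the difference from 0 to 1. DESeq2's size factors (714), at least 10 counts in every library (695), thinning to the smallest total (713) and only the 6 libraries of 1MO (900) stayed within 1.5 times of the main count. Of the 60 list counts, 191 of the 1260 values under alternatives moved by more than that. With 3 libraries per group and down to 8889083 counts in a library, small changes and genes of low level can be missed. For 1700047I17Rik2, which had counts in 1MO CLP library 1 alone, the fitted log2 change at 1MO ranged from 0 to 10.47 with 1 library left out. The cause of these shifts was not tested.

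The labels do not say what a library number shares. At 1MO the correlation of the deviations from the group means was 0.087, -0.034 and 0.20 for numbers 1, 2 and 3, and only CLP library 3 correlated best with the MPP library of its own number. At 3MO it was 0.087, 0.0098 and 0.089, and CLP libraries 1 and 3 correlated best with their own number. The correlation was not over 0.1 for every number, so the block was not used for the calls. The sums of erythroid markers at 1MO were nevertheless close at each number. They were 26.6, 13.2 and 156.5 CPM in CLP libraries 1, 2 and 3 and 30.4, 12.1 and 153.9 CPM in MPP libraries 1, 2 and 3. A replicate block gave 836 calls at 1MO (401 higher and 435 lower), 921 at 3MO, 579 at both ages and 0 for the difference, and 1006 with only the 6 libraries of 1MO. Under the block Pax5 (edgeR adjusted p = 0.0040), Ly6a (edgeR adjusted p = 0.0054), Ikzf2 (edgeR adjusted p = 0.0045), Ifit1 (edgeR adjusted p = 0.031) and Col1a1 (edgeR adjusted p = 0.039) were called, and 11 interferon-stimulated genes were lower.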

Other observations

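The 7 genes that DESeq2 called for a different step at the ages were 1700047I17Rik2, Mycn, Mst1r, Ebf1, Socs2, Maf and Ltc4s, of which edgeR called none with its usual filter and 1700047I17Rik2, Mst1r, Ebf1 and Mycn without a filter beyond 1 count. Mst1r, the receptor of macrophage-stimulating protein, was at 2.88, 16.6 and 22.5 CPM in 1MO CLPs and at 0 in each 1MO MPP library, and was called higher at 1MO (edgeR adjusted p = 0.00061) but not at 3MO (edgeR adjusted p = 0.21). Socs2, a suppressor of cytokine signaling, was at 20.6, 19.1 and 19.6 CPM in 1MO CLPs and at 15.3, 11.7 and 17.2 CPM in 1MO MPPs, with a log2 fold change of 0.42 at 1MO and 2.53 at 3MO (edgeR adjusted p of the difference 0.92). Maf, a factor of T cells and macrophages, had a log2 fold change of 0.72 at 1MO and -2.29 at 3MO. Ltc4s, an enzyme of leukotriene synthesis, was lower at both ages in the fit, with -1.27 at 1MO and -8.59 at 3MO. 1700047I17Rik2 was at 26.6 CPM in 1MO CLP library 1 and at 0 in the other 5 libraries of 1MO, so that its change rests on that library.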
